A study of Oryza sativa Japonica Group with 6 samples.

Results

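Aquaporins are channel proteins of the major intrinsic protein family that let water, and in some members small uncharged solutes, cross cell membranes. The aquaporin genes described here are those whose symbol or synonym in the rice gene annotation has the form PIP, TIP, NIP or SIP followed by a subgroup and a member number. Of 29 such genes, 25 had a probe set tied to that gene alone, out of 17905 genes measured in this way. They were 10 plasma membrane intrinsic proteins (PIPs), 8 tonoplast intrinsic proteins (TIPs), 5 nodulin 26-like intrinsic proteins (NIPs) and 2 small basic intrinsic proteins (SIPs). The other 4, NIP1-2, NIP3-3, PIP2-3 and TIP5-1, were not analysed here. NIP3;5, which the study picked on these same arrays and kept among its −N-repressed genes after qRT-PCR, carries no such name in the tables used and was not analysed here either.

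RNA was taken from roots of rice of the japonica cultivar TNG67, 10 days old and raised in Yoshida's hydroponic solution. In the −N group, the seedlings were kept for 1 h in the solution without ammonium nitrate, and in the +N group the solution held ammonium nitrate. There were 3 biological replicates of each, with 1 GeneChip Rice Genome Array per replicate, and their number limits the precision. The labels describe a transfer to new solution for 1 h in both groups, but the Methods describe it for −N only. A label of +N replicate 3 gives 0.5 h, and −N replicates 1 and 2 are titled as reanalysed. The labels call the replicates biological but do not name separate cultures, so a p-value here speaks only for the spread between these arrays, part of which may be technical.

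In plant roots, PIPs carry water across the plasma membrane, and in maize the PIP1 type reaches that membrane with the help of the PIP2 type. TIPs sit in the membrane of the vacuole and pass water, and some also pass urea and ammonia. NIPs carry metalloids such as silicic acid, boric acid and arsenite, and in Arabidopsis SIPs are found in the endoplasmic reticulum.

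None of the 25 aquaporin genes passed the test between −N and +N. By limma, adjusting over all 17905 genes by Benjamini-Hochberg, 0 of 25 were higher and 0 of 25 were lower in −N once an adjusted p of 0.05 was asked for, against backgrounds of 0.0223% and 0.0838% of all genes. The lowest adjusted p among the aquaporins was 0.904, that of PIP2-8. At an unadjusted p under 0.05, 1 aquaporin was higher (PIP2-8) and 0 were lower, where 2.17% and 3.08% of all genes were. With the replicate number as a block, which pairs arrays of equal number, 4 were higher at an unadjusted p under 0.05 (PIP1-3, PIP2-8, TIP1-2 and TIP4-1) and 0 were lower, where 12.8% and 7.89% of all genes were, and 0 passed after adjustment in either direction, where 0.212% passed as higher and 0.408% as lower. The lowest adjusted p was then 0.0949. The aquaporin log2 fold changes of −N over +N ran from −0.16 to 0.88 with a median of 0.08, and those of all genes had a median of 0.03. With all 6 arrays none reached 2-fold in either direction, as 0.765% of all genes did upward and 1.40% did downward. With 1 array left out, TIP1-2 reached 2-fold upward in 3 of 6 cases and PIP2-5 in 1, where 0.564% to 1.77% of all genes did.

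The arrays bounded most of these differences in probe set intensity. For 20 of the 25 genes, the 95% interval of the limma log2 fold change, not adjusted for the number of genes, lay within 2-fold in both directions, as it did for 69.1% of all genes. With the replicate block this was so for 23 genes (92%), about the share of all genes (91.2%). The 5 genes whose unblocked interval reached past 2-fold were PIP2-4, PIP2-5, PIP2-8, TIP1-2 and TIP4-1, and each of these intervals passed it on the side of −N being higher. Under the block, PIP2-5 and TIP1-2 were left. In an unblocked fit of only genes at or above the median level, 12 of 16 aquaporins had an interval within 2-fold. Of all such genes, 70.8% had one. The other aquaporins were dimmer, and some, such as NIP3-1, lay below the array medians. For those the interval bounds an intensity, and whether it bounds a transcript is not known.

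**Figure D1:**
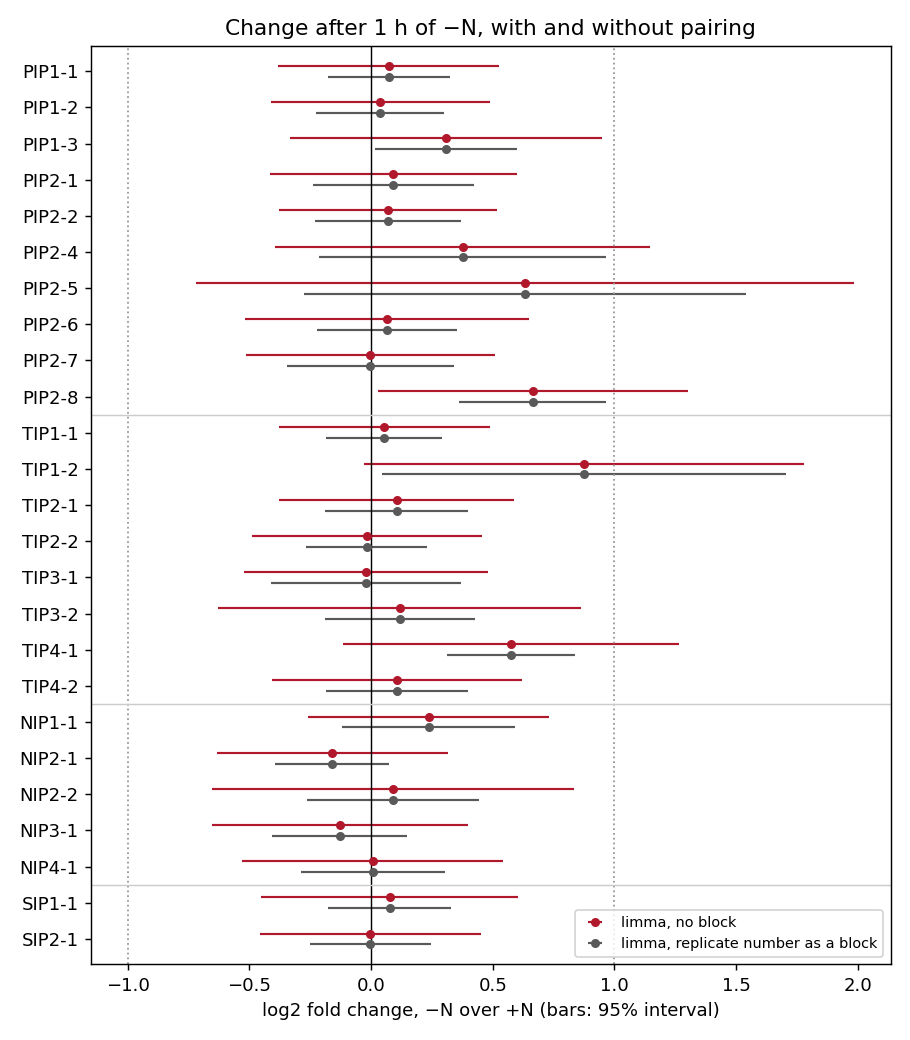
The log2 fold change of −N over +N of each aquaporin gene (x axis), with its 95% interval from limma without a block (red) and with the replicate block (grey), and dotted lines at 2-fold. The estimates lie between −0.16 and 0.88, and the unblocked intervals of 20 of the 25 genes stay between the dotted lines.

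Many of the aquaporin probe sets were among the brightest of the root. In −N, 9 of the 25 genes were in the brightest 1% of all genes and 12 in the brightest 5%, and in +N these counts were 8 and 11. TIP1-1 had the third highest mean level of all 17905 genes in both groups. NIP2-1 ranked 16 in −N and 9 in +N, and TIP2-1 ranked 11 in −N and 16 in +N. PIP1-1 ranked 12 in −N and 15 in +N, PIP1-2 ranked 18 in −N and 19 in +N, and PIP2-2 ranked 31 in −N and 37 in +N. Of the 25 genes, 16 had a mean level at or above the median of all genes (50% by construction) and 9 lay below it. Probe sets differ in how bright they are for the same amount of RNA, so these ranks order probe set intensities and not transcript amounts. Between neighbours in the order of the 25 genes in +N, the ranges over the 3 arrays overlapped in 15 of 24 cases. Such overlap does not by itself leave an order open, because both genes are read on the same arrays. PIP2-2, at 9614, 10827 and 11063 in +N, was above its neighbour TIP2-2, at 9006, 7951 and 10094, on each array. Other overlapping neighbours, such as NIP2-1 and PIP1-1, changed places between arrays.

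**Figure D2:**
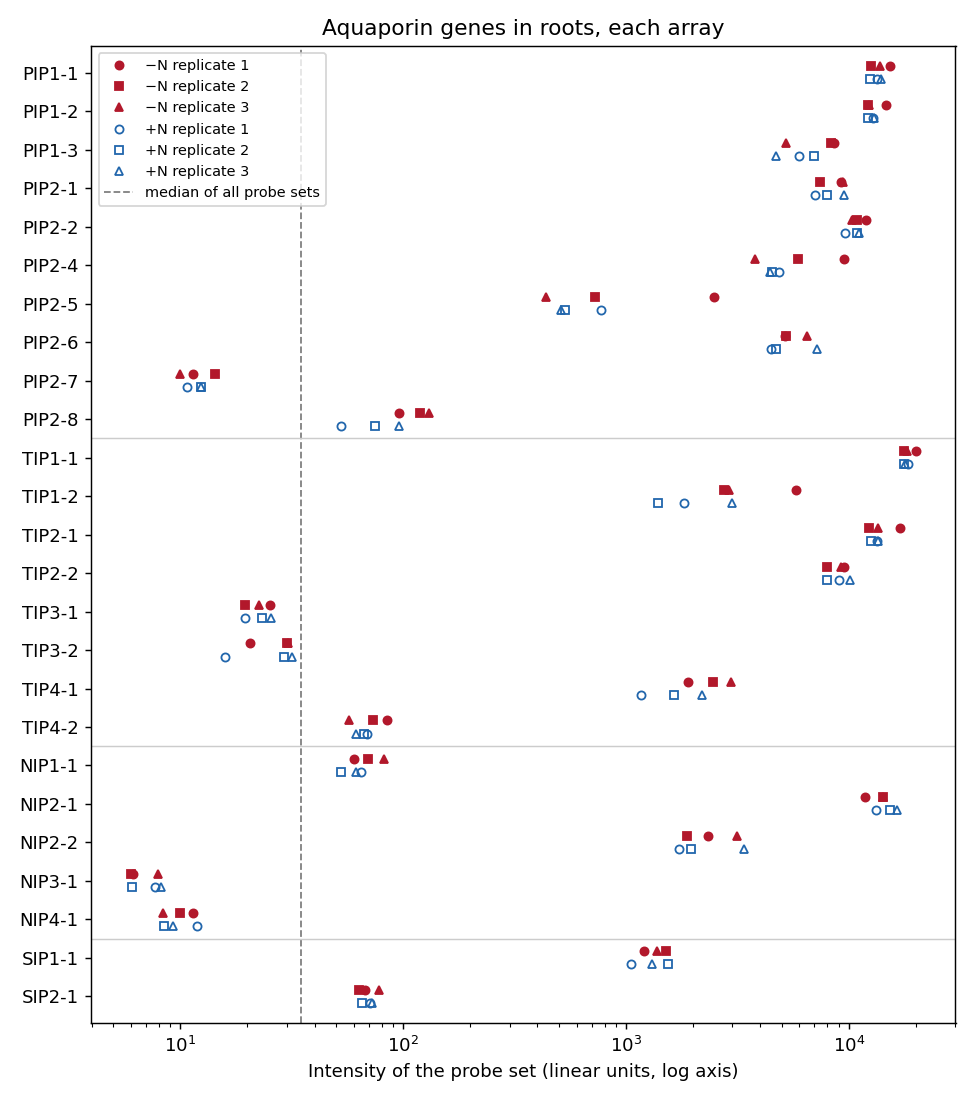
Intensity of each aquaporin gene's probe set (log axis) on every array, with −N in filled red symbols above +N in open blue symbols, and the replicate number as the symbol's shape. Levels span from about the dimmest genes (NIP3-1, NIP4-1, PIP2-7) to TIP1-1, and for every gene but PIP2-8 the groups overlap.

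Among the PIPs, none of the genes with the highest levels passed the test. PIP1-1 (LOC4330248), known also as the water channel RWC1, had intensities of 15356, 12609 and 13834 in −N replicates 1 to 3, against 13368, 12374 and 13914 in +N. PIP1-2 (LOC9270874) had 14605, 12223 and 12245 in −N, against 12788, 12199.8 and 12946 in +N. For both genes −N replicate 1 was the highest array and the other −N arrays lay inside the +N range. Their log2 fold changes were 0.07 (SE 0.20) and 0.04 (SE 0.19), with 95% intervals from −0.38 to 0.53 and from −0.41 to 0.49. In its brighter probe set, PIP2-2 (LOC4330049) was of the same kind, with 11021 ± 810.1 in −N and 10501 ± 777 in +N (SD, n = 3 each). PIP2-1 (LOC4343122) and PIP2-6 (LOC4335226) had log2 fold changes of 0.09 and 0.07.

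PIP1-3 (LOC4331194), also called RWC3, had intensities of 8606, 8335 and 5210.1 in −N, against 5989, 6988 and 4704 in +N. Replicate 3 was the lowest array in each group, and within every pair of equal number −N was above +N, by 0.52, 0.25 and 0.15 on the log2 scale. The groups overlapped, and the log2 fold change of 0.31 (SE 0.28) did not pass in limma, nor with the block (SE 0.11, adjusted p = 0.221). With arrays left out it lay between 0.15 (without +N replicate 3) and 0.54 (without −N replicate 3).

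PIP2-8 (LOC4334873) was the only aquaporin whose groups did not overlap. Its intensities were 96.1, 119 and 130.1 in −N, against 52.4, 75.0 and 95.4 in +N, so that the lowest −N array and the highest +N array were next to each other. Among all genes, 3.98% had −N arrays wholly above the +N arrays. On the log2 scale the difference was 0.66 with an SE of 0.27 (adjusted p = 0.904 in limma), and the block gave an SE of 0.12 and an adjusted p of 0.0949. With 1 array left out it ran between 0.43 (without +N replicate 1) and 0.87 (without +N replicate 3). The level was below the median of all genes in both groups, ranking 11466 in −N and 12899 in +N.

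PIP2-4 (LOC4343119) and PIP2-5 (LOC4343121) lie next to PIP2-1 in the RefSeq annotation of chromosome 7, with 1 annotated gene between PIP2-4 and PIP2-5 and 0 between PIP2-5 and PIP2-1. PIP2-5 had intensities of 2468, 724 and 436 in −N, against 773, 532 and 508 in +N. PIP2-4 had 9496, 5936 and 3796 in −N, against 4863, 4536 and 4430.1 in +N. In both genes −N replicate 1 was far above the rest and −N replicate 3 was the lowest of all arrays. In −N replicate 2, PIP2-4 was above all +N arrays and PIP2-5 was inside the +N range. The log2 differences in pairs 1, 2 and 3 were 1.67, 0.44 and −0.22 for PIP2-5 and 0.97, 0.39 and −0.22 for PIP2-4. The spread within −N was wide, with a SD on the log2 scale of 1.29 for PIP2-5 and 0.66 for PIP2-4, against 0.33 and 0.07 in +N. Without −N replicate 1, their log2 fold changes of 0.63 and 0.38 became −0.08 and 0.04, while the median of all genes became 0.17. Without both arrays of replicate 1, a choice added after seeing the data, they were 0.11 and 0.08, and the median of all genes was 0.05. PIP2-1, the third gene at this place, had log2 differences of 0.39, −0.10 and −0.01 in the pairs.

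PIP2-7 (LOC4347729) was dim, with 11.4, 14.4 and 9.92 in −N, against 10.7, 12.4 and 12.3 in +N. All of these values were below the array medians of 33.3 to 35.2. The file holds no detection calls, so whether such a dim probe set reports any transcript is not known.

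Among the TIPs, TIP1-1 (LOC4331608) had intensities of 20042, 17716 and 18221 in −N, against 18323, 17588 and 17926 in +N. Its log2 fold change was 0.05 (SE 0.19), and its pairs differed by 0.13, 0.01 and 0.02. These values stand near the top of the arrays, whose highest probe sets read from 24263 to 27235. TIP2-1 (LOC4330207) had 16914, 12364 and 13458 in −N, against 13401, 12499.6 and 13502 in +N. Apart from −N replicate 1, its −N arrays lay inside or just below the +N range, and the log2 fold change was 0.11 (SE 0.21). TIP2-2 (LOC4340941) had 9477, 7991 and 9211 in −N, against 9006, 7951 and 10094 in +N. Its log2 difference was −0.02 (SE 0.20). PIP2-2, TIP2-1 and TIP3-1 were read by probe sets of the _s_at type and TIP2-2, TIP4-2 and NIP2-2 by _x_at sets, types that can bind transcripts of other genes, so the values of these 6 genes can include close relatives.

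TIP1-2 (LOC4324303) had the largest log2 fold change of the aquaporins when all 6 arrays were used. Its intensities were 5811, 2754 and 2904 in −N, against 1812, 1385 and 3000.2 in +N. In pairs 1 and 2 −N was 3.21-fold and 1.99-fold the level of +N, whereas in pair 3 it was 0.968-fold. The groups overlapped because +N replicate 3 lay above 2 of the −N arrays, and +N replicate 3 is the array with the 0.5 h label. On the log2 scale the difference was 0.88 with an SE of 0.39 (adjusted p = 0.990 in limma, and 0.223 with the block). With 1 array left out it ran between 0.53 (without −N replicate 1) and 1.18 (without +N replicate 3, unadjusted p = 0.0205 in limma), and it was 1.07 without −N replicate 2 and 1.03 without −N replicate 3. PIP2-8 and TIP4-1 were above TIP1-2 without −N replicate 1, at 0.79 and 0.75. They were also above it without both arrays of replicate 1, at 0.56 and 0.51 against 0.47. PIP2-5 was above TIP1-2 without −N replicate 3, at 1.17, and without +N replicate 1, at 0.823 against 0.819. Without +N replicate 2, PIP2-8 was above TIP1-2, at 0.69 against 0.62.

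TIP4-1 (LOC4338163) had a difference of like size in each pair. Its intensities were 1895, 2461 and 2968 in −N, against 1161, 1641 and 2197 in +N. The same order of replicates in both groups made the groups overlap, although −N was 1.63-fold, 1.50-fold and 1.35-fold the level of +N in pairs 1, 2 and 3. The log2 fold change of 0.58 had an SE of 0.30 without the block and 0.10 with it, and the adjusted p with the block was 0.0950, above the threshold. The 95% interval with the block ran from 0.31 to 0.84. Without the block and with 1 array left out, the log2 fold change lay between 0.34 (without +N replicate 1) and 0.80 (without +N replicate 3). When both TIP4-1 probe sets were averaged it was 0.25.

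The TIP3 genes, known for the vacuoles of seeds, were dim in these roots. TIP3-1 (LOC4348981) had 25.2, 19.4 and 22.4 in −N, against 19.4, 23.1 and 25.5 in +N. TIP3-2 (LOC4336464) had 27.0 ± 5.61 in −N and 25.6 ± 8.51 in +N (SD, n = 3 each). All of these readings lay under the medians of their arrays. TIP4-2 (LOC4324277), with 71.5 ± 13.8 in −N and 65.6 ± 4.06 in +N (SD, n = 3 each), had a log2 fold change of 0.11.

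Among the NIPs, NIP2-1 (LOC4330713) encodes Lsi1, the channel through which rice roots take up silicic acid. Its intensities were 11842, 14164 and 14171 in −N, against 13192, 15295 and 16384 in +N. It was lower in −N in each pair, by 0.16, 0.11 and 0.21 on the log2 scale, while the groups overlapped. Its log2 fold change of −0.16 was the lowest of the aquaporins and did not pass (SE 0.20, or under the block SE 0.09 and adjusted p = 0.395). The interval with the block ran from −0.39 to 0.08. With 1 array left out, NIP2-1 had log2 fold changes between −0.25 (without +N replicate 1) and −0.072 (without −N replicate 1). Only NIP2-1 and NIP3-1 were lower in −N in all 3 pairs, as 17.5% of all genes were.

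NIP2-2 (LOC4340558), which encodes the silicon transporter Lsi6, had 2329.9, 1884 and 3137 in −N, against 1733, 1957 and 3369 in +N, and a log2 fold change of 0.09 (SE 0.32). It was higher in −N in pair 1 alone. NIP3-1, listed under the symbol DTE1 and known as a boric acid channel, had 6.15, 5.97 and 7.94 in −N, against 7.72, 6.05 and 8.16 in +N. Its level ranked 17757 in −N and 17667 in +N among the 17905 genes. NIP4-1 (LOC4326119) was nearly as dim, with 9.91 ± 1.53 in −N and 9.89 ± 1.80 in +N (SD, n = 3 each). NIP1-1 (LOC4328814) had 70.3 ± 10.7 in −N and 59.5 ± 6.16 in +N (SD, n = 3 each), a log2 difference of 0.24 (SE 0.21).

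Of the SIPs, SIP1-1 (LOC4325361) had intensities of 1199, 1509.9 and 1374 in −N, against 1048, 1544 and 1309 in +N. SIP2-1 (LOC4332668) had 67.3, 63.3 and 78.0 in −N, against 70.6, 65.6 and 72.1 in +N. Both genes overlapped fully between groups, with log2 fold changes of 0.08 (SE 0.23) and −0.00 (SE 0.20).

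The aquaporin differences depended on the replicate pair. In pair 1, 20 of the 25 genes were higher in −N, among them all 10 PIPs and all 8 TIPs, and 5 were lower, against 48.4% and 50.2% of all genes. In pair 2, 17 of 25 were higher and 8 were lower, against 56.6% and 41.8% of all genes. In pair 3, 18 of 25 were lower in −N and 7 were higher, against 40.3% and 58.3% of all genes. The median log2 difference of the aquaporins was 0.29 in pair 1, 0.03 in pair 2 and −0.06 in pair 3, where the medians of all genes were −0.00, 0.05 and 0.06. By subfamily, the PIP medians were 0.35, 0.18 and −0.09, the TIP medians 0.35, 0.03 and −0.05, the NIP medians −0.10, −0.02 and −0.10, and the SIP medians 0.06, −0.04 and 0.09. These are descriptions of 3 pairs with no test. Higher levels in −N in all 3 pairs were found for PIP1-3, PIP2-8, TIP1-1 and TIP4-1, 4 of 25 genes, while 26.5% of all genes were.

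**Figure D3:**
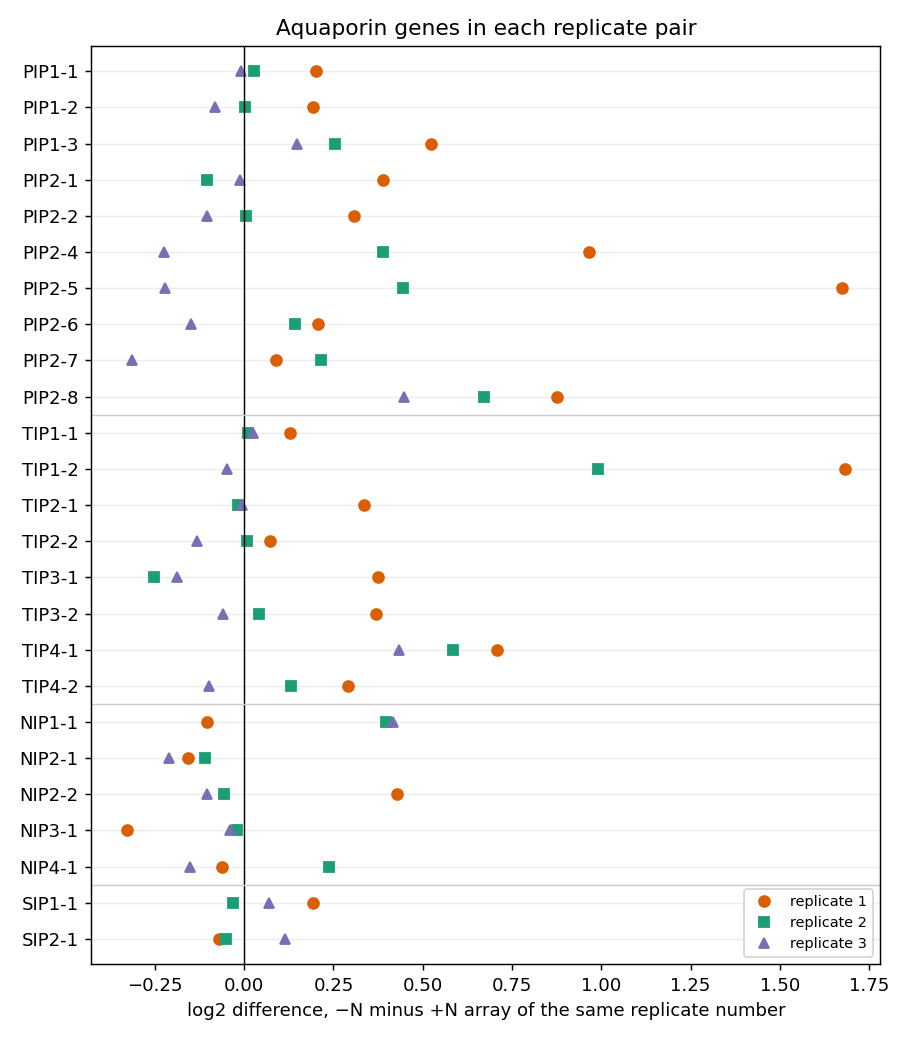
The log2 difference of each aquaporin gene between the −N and the +N array of equal replicate number (x axis), with a symbol for each of the 3 pairs. In pair 1 (circles) 20 of 25 genes lie above 0, and in pair 3 (triangles) 18 lie below it.

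Replicate 1 also stood apart in whole arrays. The upper quartile of intensity was 131 in −N replicate 1 and 137 in +N replicate 1, and from 166 to 180 on the other 4 arrays. The summed intensity of the 25 aquaporin genes was 146713, 124579 and 127578 in −N, against 118917, 120343 and 132384 in +N. The highest aquaporin sum and the lowest upper quartile were those of −N replicate 1. The lowest aquaporin sum was that of +N replicate 1, which had the next lowest upper quartile. Leaving out both arrays of replicate 1, an alternative added after seeing the data, left 13 of the 25 aquaporin genes with a higher geometric mean in −N, where 58.6% of all genes had one. The median log2 fold change of the aquaporins was then 0.01, against 0.05 for all genes. With all arrays, 19 of 25 were higher and 6 were lower, where 55.7% and 44.3% of all genes were.

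The label of the tissue was checked with marker genes. Of the root markers, 5 could be measured, and their summed intensity was 4473 to 7435 in −N and 4095 to 8079 in +N. Most of this came from Lsi2, while SCR1 was dim at 22.1 ± 7.10 in −N and 19.6 ± 5.15 in +N (SD, n = 3 each). The log2 fold change was −0.16 for Lsi2, 0.25 for CASP1, 0.29 for NRT2.3, 0.16 for SCR1 and 0.20 for SHR1. Their median was 0.20, and 0 of 5 passed the test. The 5 measured markers of green shoot tissue summed to 6247 to 10989 in −N and 12634 to 19245 in +N, with 0 of 5 past the test and all 5 log2 fold changes below 0 (median −1.15). The antenna protein gene CAB2R gave most of this sum and was among the brightest 0.0949% of all genes in +N. RBCS1 was at 5.31 ± 0.19 in −N and 5.52 ± 0.48 in +N (SD, n = 3 each). That is among the dimmest of all genes, and its log2 fold change was −0.05 (SE 0.19), so its sign says little. In CAB2R, PORB and rbcS the −N arrays lay wholly below the +N arrays, as in 5.32% of all genes. In PORA and RBCS1 the groups overlapped. The part of such transcripts in the aquaporin values was not tested. In bulk RNA, fewer cells of a type and less RNA per cell cannot be told apart.

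For 5 aquaporins, more than 1 probe set was tied to that gene alone, 11 probe sets in all. The brighter and the dimmer probe set gave log2 fold changes of 0.05 and 0.03 for TIP1-1, the dimmer being of the _x_at type. For TIP2-1 these were 0.11 and 0.16, and for PIP2-2 they were 0.07 and 0.21. In pairs 1, 2 and 3, the brighter PIP2-2 set differed by 0.31, 0.01 and −0.10 and the dimmer by 0.65, 0.10 and −0.13. For TIP2-1 the pairs differed by 0.34, −0.02 and −0.00 in the brighter set and 0.72, −0.19 and −0.04 in the dimmer. The dimmer PIP2-2 probe set was 10.5-fold below the brighter one, which is of the _s_at type. The second TIP4-1 probe set was at 11.6, 17.4 and 29.1 in −N, against 11.0, 17.4 and 36.1 in +N, 106-fold dimmer than the one used, and its log2 fold change was −0.08 (SE 0.48).

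The PIP2-1 probe sets gave different values, and their average had a log2 fold change of 0.31, where the brightest alone had 0.09. The brightest had 9218, 7424 and 9423 in −N, against 7039.9, 7973 and 9490.4 in +N. The second, 1.08-fold dimmer, had a log2 fold change of 0.04 (SE 0.18). It is of the _x_at type, which can bind transcripts of other genes. The third, of the plain _at type and 43.4-fold dimmer than the brightest, had 181, 347 and 263 in −N, against 112, 197 and 141 in +N. In the third probe set −N was above +N in each pair, by 0.69, 0.82 and 0.90 on the log2 scale, although the groups overlapped because −N replicate 1 lay below +N replicate 2. Its log2 fold change was 0.80 (SE 0.30), and when all 57194 probe sets other than controls were tested in limma it did not pass without the block (unadjusted p = 0.0302, with 0 of 31 aquaporin probe sets past an adjusted p of 0.05, against 0% of all probe sets as higher and 0.00699% as lower). With the replicate block its SE was 0.11 and it passed, with an adjusted p of 0.0340, the only 1 of the 31 aquaporin probe sets to do so, where 0.332% of all probe sets passed as higher and 0.393% as lower. This probe set was singled out after its values were seen. The tables do not say which part of the PIP2-1 transcript each probe set covers.

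**Figure D4:**
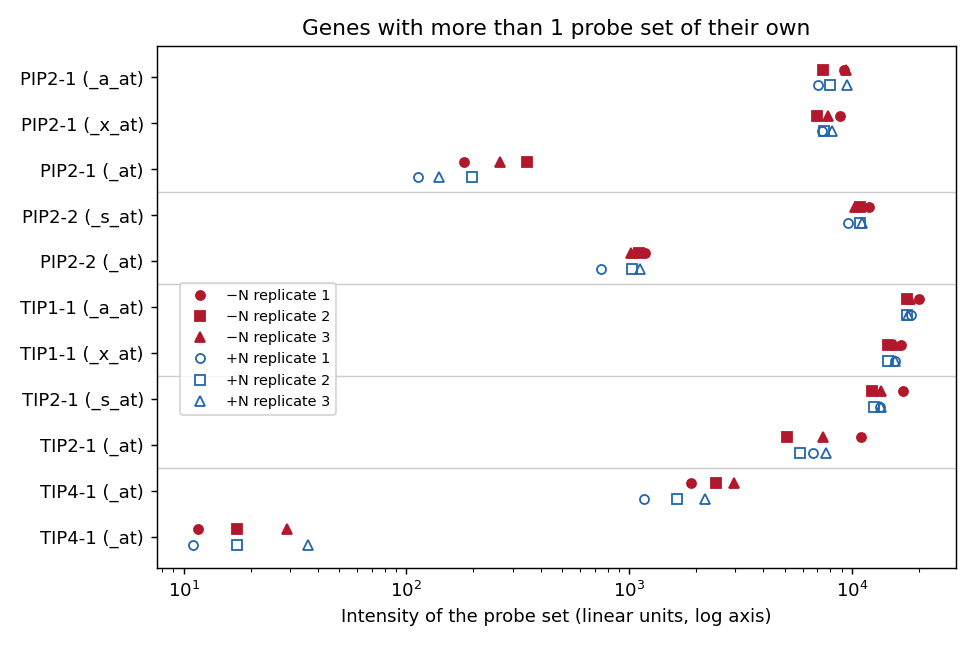
Intensity (log axis) of every probe set tied to a single aquaporin gene, for the 5 genes with more than 1, with −N in filled red symbols above +N in open blue symbols. The dim PIP2-1 _at probe set is higher in −N in each pair, though its groups overlap, as do those of the 2 bright PIP2-1 probe sets.

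Few genes that work beside aquaporins could be named from the annotation. Of the exporters that act with NIP channels, only Lsi2 was measured, which passes silicic acid on from the cells that Lsi1 loads. Lsi2 had intensities of 3820.2, 5610.4 and 5038 in −N, against 3553, 6669 and 6382 in +N and had a log2 fold change of −0.16 (SE 0.30). VATP-P1, the only tonoplast proton pump gene found by symbol, had a log2 fold change of −0.09 (SE 0.22). Of 3 genes of urea uptake and breakdown, the urea transporter gene DUR3 had 67.7, 62.8 and 77.4 in −N, against 97.9, 200.5 and 98.1 in +N. Its −N arrays lay wholly below the +N arrays, as was so for 5.32% of all genes, and its log2 fold change of −0.85 (SE 0.31) did not pass in limma (adjusted p = 0.787). The urease accessory genes UREF and UREG had log2 fold changes of 0.14 and 0.10. None of these 5 genes passed in either direction, and no plasma membrane proton pump or boron exporter could be matched by symbol.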

How the data were processed

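The authors deposited linear intensities for 57381 probe sets on 6 arrays, and per the labels the authors' processing named GCOS and RMA, with no version, role or order. How arrays were scaled to each other is not given in the sources used here. Intensities were taken to log2 without a pseudocount, and 187 control probe sets were left out. Of all probe sets, 22436 had a single gene symbol in the platform annotation, 95 several and 34850 none. Names came from a RefSeq table of assembly ASM3414082v1, used for names and gene order only. Each of 17905 genes was represented by its brightest probe set. No sequences were at hand for these genes.

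Differences of −N over +N were estimated across the 6 arrays by limma 3.58.1 (lmFit, then eBayes, under R 4.3.3). Tests were two-sided, p-values were adjusted by Benjamini-Hochberg over the 17905 genes, and an adjusted p under 0.05 passed. SDs are of linear intensities unless said otherwise, and SEs are of log2 fold changes. Deviations from the group means of arrays with equal replicate numbers correlated at 0.785, 0.664 and 0.653 over all probe sets. Those of arrays with unequal numbers correlated at −0.547 to 0.0846. Arrays of equal number were therefore treated as pairs. The data alone give this pairing, and no source says what a number marks. The unblocked fit is the one reported, and the blocked fit, other scalings, filters and left-out arrays were tried as alternatives. Values on each array were given for the 2 brightest of each subfamily and the 5 largest differences in each direction, and others are named with a level or a difference. PIP1-3 and PIP2-1 fall outside this rule and were given in full after their values were seen. The members and lists were chosen with earlier results of these data known.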

Additional observations from a re-analysis of the deposited data

How the results depend on the processing

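The counts of aquaporins past the adjusted threshold, 0 higher and 0 lower, were unchanged in limma under every alternative but 1, in which a dim PIP2-1 probe set passed (every probe set tested with the block, adjusted p = 0.0340). Over all genes, 4 were higher and 15 lower. There were 38 and 73 with the replicate block, 2 and 22 after quantile normalization, 2 and 17 with only genes whose mean is at or above the median (bright genes), 0 and 4 with every probe set tested, and 190 and 225 with every probe set tested and the block. Leaving out 1 array gave 0 to 10 higher and 0 to 14 lower genes, with 10 and 14 without −N replicate 1 and 0 without any other single array, and without both arrays of replicate 1 there were 0 and 0. At an unadjusted p under 0.05, 1 aquaporin was higher, where 2.17% of all genes were. There were 4 under the block (12.8%), 2 after quantile normalization (3.97%), 2 with every probe set tested (1.29% of probe sets) and 0 among bright genes (2.1%). With 1 array left out there were 0 to 3, namely 0 without +N replicate 1 (1.64%) or 2 (1.48%), 2 without −N replicate 1 (5.44%) and 3 without +N replicate 3 (1.71%). None was lower at that p under any of these. Aquaporins with an interval within 2-fold numbered 20, and 12 among the 16 that are bright genes, where 69.1% of all genes and 70.8% of bright genes had one. Averaging all probe sets of a gene left 7 of 9 aquaporins in the brightest 1%. Of the 25 genes, 15 changed the sign of their log2 fold change under at least 1 alternative, none of them past the test, and 10 kept it. With arrays left out (each array in turn, and both arrays of replicate 1, a choice added after seeing the data), the ranges were −0.10 to 0.38 for NIP2-2, −0.099 to 0.15 for NIP4-1, −0.047 to 0.081 for PIP1-2, −0.057 to 0.21 for PIP2-1, −0.049 to 0.12 for PIP2-2, −0.079 to 1.17 for PIP2-5, −0.057 to 0.28 for PIP2-6, −0.15 to 0.12 for PIP2-7, −0.069 to 0.21 for SIP1-1, −0.088 to 0.062 for SIP2-1, −0.025 to 0.20 for TIP2-1, −0.10 to 0.068 for TIP2-2, −0.22 to 0.076 for TIP3-1, −0.20 to 0.30 for TIP3-2 and −0.022 to 0.26 for TIP4-2. For the 10 genes that kept their sign these were 0.12 to 0.41 for NIP1-1, −0.25 to −0.072 for NIP2-1, −0.26 to −0.029 for NIP3-1, 0.00047 to 0.14 for PIP1-1, 0.15 to 0.54 for PIP1-3, 0.043 to 0.70 for PIP2-4, 0.43 to 0.87 for PIP2-8, 0.0019 to 0.091 for TIP1-1, 0.47 to 1.18 for TIP1-2 and 0.34 to 0.80 for TIP4-1. The −0.00 of PIP2-7 became 0.0030 after quantile normalization, 0.0082 after median centring and 0.0020 with a pseudocount of 16, and that of SIP2-1 became 0.0086 after median centring. The cause of these changes was not tested. The replicate block changed no call among the 25 genes, and every probe set tested with the block was also added after seeing the data.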
